A study of Mus musculus with 16 samples.

Results

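Cytosolic ribosomal protein genes were the rows of the expression table whose symbol began with Rps or Rpl and a number, or was Rpsa, Rplp0, Rplp1 or Rplp2. S6 kinase names (10 rows) and names of pseudogenes (7 rows) were left out. The choice gave 87 of the 20056 symbols. Of these, 46 encode proteins of the large subunit and 31 proteins of the small subunit, together called the 77 core genes. A further 9 are duplicated copies of a core gene, and Rps19bp1 is a nucleolar protein that carries the name only. The libraries were poly(A) RNA-seq libraries of sorted cells labelled osteoblasts (OB) and mesenchymal stem cells (MSC), labelled as coming from 4 miR-9-1-deficient and 4 wild-type mice, and each cell type and genotype had 4 libraries. The study asked how gene expression in these cells differs without miR-9-1, a microRNA gene disrupted with CRISPR/Cas9. The animal numbers in the labels are here given as mice E to H for deficient and A to D for wild-type libraries, with 1 OB and 1 MSC library for each number. Sex, age, strain, sort gate and the exact edit are not in the labels.

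The cytosolic ribosome is built from a small subunit, which reads the messenger RNA, and a large subunit, which joins the amino acids. Each ribosome holds 1 copy of nearly every protein, so cells make these proteins in matched amounts. Their messenger RNAs usually start with a C followed by a run of pyrimidines, the terminal oligopyrimidine or TOP motif, through which mTOR and the RNA-binding protein Larp1 govern their translation. Myc is a known activator of ribosome production.

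Start windows of 6 core genes and of the copy Rps27rt are shown as examples that hold a stretch of pyrimidines near the start. The annotated GENCODE transcripts of these 6 core genes do not themselves open with a C and 4 more pyrimidines, whereas that of Rps27rt does. The letters CTTTCC, in capitals, were searched on the transcribed strand, and each window runs from 15 bases before to 15 bases after the RefSeq transcription start (GRCm38.p6), 5′ to 3′.
Rpl13a (chr7:45128731-45128760, minus strand): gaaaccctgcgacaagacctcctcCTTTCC
Rpl18 (chr7:45718056-45718085, plus strand): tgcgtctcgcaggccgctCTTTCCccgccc
Rpl28 (chr7:4792950-4792979, plus strand): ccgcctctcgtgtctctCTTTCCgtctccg
Rpl35a (chr16:33056467-33056496, plus strand): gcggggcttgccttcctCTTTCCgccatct
Rpl38 (chr11:114668565-114668594, plus strand): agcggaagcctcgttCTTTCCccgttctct
Rps27 (chr3:90213634-90213663, minus strand): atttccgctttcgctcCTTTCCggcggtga
Rps27rt (chr9:114982725-114982754, minus strand): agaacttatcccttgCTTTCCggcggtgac
Rps27rt is an intronless copy of Rps27. CTTTCC stood in such windows of Rpl15, Rpl35, Rps10 and the copy Rpl39l as well, which are not printed. Within 50 bases of the start on either side, CTTTCC stood in 21 of 67 windows of 57 core genes (31.3%), against 4.29% of 13693 windows of genes with 10 or more normalized counts in at least 8 libraries. The longer CTCTTTCC, which contains CTTTCC, stood in 13.4% of core windows and 0.475% of all. TTTCC, also contained in CTTTCC, stood in 52.2% and 13.5%. CGGAAG, read on both strands from 250 bases before to 50 after the start, stood in 62.7% and 28.1%. TATAAA near the start stood in 5.97% and 2.02%. By the annotated GENCODE M21 start alone, a C followed by at least 4 pyrimidines opened 11 of 77 core transcripts (14.3%), against 2.32% of 13162 protein-coding genes. These shares describe letters in windows whose annotated start can be a few bases off.

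The coding sequence of Rps27 is shown because 1 of the 2 core genes that pass the genotype test below shares it with a second gene. Rps27 (chr3:90212671-90213651, minus strand, 4 exons) and Rps27rt (chr9:114982366-114982739, minus strand, 1 exon) hold the same 252 coding bases, with 0 differences, from GENCODE M21 on GRCm38. Rps27l (chr9:66946086-66949512, plus strand, 4 exons) is another gene of the family with 252 coding bases, 60 of which differ from Rps27 and are in capitals.
Rps27 and Rps27rt: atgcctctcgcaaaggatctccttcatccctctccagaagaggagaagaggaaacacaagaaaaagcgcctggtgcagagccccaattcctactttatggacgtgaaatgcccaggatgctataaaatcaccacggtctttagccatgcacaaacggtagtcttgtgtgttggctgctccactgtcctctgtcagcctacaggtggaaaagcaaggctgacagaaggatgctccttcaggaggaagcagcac
Rps27l: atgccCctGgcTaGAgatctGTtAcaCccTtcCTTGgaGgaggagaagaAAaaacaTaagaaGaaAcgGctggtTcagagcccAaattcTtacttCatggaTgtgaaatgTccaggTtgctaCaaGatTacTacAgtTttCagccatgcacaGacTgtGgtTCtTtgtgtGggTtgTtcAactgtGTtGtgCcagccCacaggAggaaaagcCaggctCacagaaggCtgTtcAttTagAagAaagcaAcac
The transcripts of Rps27 and Rps27rt share an unbroken run of 341 bases, and the table gave the pair nearly the same reads. Rps27 exceeded Rps27rt by 0.0832 to 1.81% of its own reads across the 16 libraries. Reads of these genes cannot be told apart, so both rows are 1 measurement. The longest run shared by Rps27l and Rps27 is 11 bases, and Rps27l had its own pattern of values.

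OB libraries held 15543693 to 18962771 reads and MSC libraries 10148197 to 14246986. Mir9-1 itself had 0, 3, 0 and 0 reads in deficient OB libraries and 7, 16, 0 and 4 in wild-type OB libraries, and 0 in all 8 MSC libraries, where 0 allows up to 3 reads (counting error only). The markers went partly against the cell labels. Of 12 osteoblast markers, such as Bglap and Col1a1, 9 were lower in wild-type OB than in wild-type MSC libraries and 0 higher (limma, adjusted p under 0.05), so "OB" names the libraries by their label. Of 12 blood progenitor markers 9 were higher and 1 lower, and 10 of 10 erythroid genes were higher, in wild-type OB than in wild-type MSC libraries. In that comparison 34.4% of all genes were higher and 35.5% lower. All 8 OB libraries held both the X-inactivation transcript Xist (3720 to 8053 normalized counts) and the Y-linked Ddx3y (649 to 1939). In MSCs Ddx3y was at 1848 to 3355 for mice E, F and A and at most 78.1 for the other mice. The OB libraries of mice B, C, D, G and H thus held Y-linked RNA, at 649 to 817, that the MSC libraries of the same numbers nearly lacked. Among OB libraries, those of mice A, E and F nevertheless had the highest Ddx3y (1167 to 1939) and the lowest Xist (3720 to 4652, against 6745 to 8053). The OB values thus also followed the MSC library of the same number. How both transcripts came into each OB library was not tested, so a mouse letter names a library number and n counts libraries. Skeletal muscle genes stood high in the MSC libraries of mice G and H, at a mean log2 level of 6.04 and 7.62, against 3.09 to 4.85 in the other 6 MSC libraries. Stromal genes stood at 10.6 and 11.1 in the OB libraries of mice E and F, against 8.52 to 9.83 among the remaining 6.

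Core ribosomal protein genes took a larger share of RNA in OBs than in MSCs, and in MSCs a larger share in deficient than in wild-type mice. Normalized counts are read counts divided by the authors' size factor for each library. In deficient OBs core genes took 4.15, 4.37, 4.87 and 5.24% of all normalized counts, and in wild-type OBs 4.40, 4.46, 4.82 and 4.50%. The 2 OB groups overlapped. In deficient MSCs the share was 1.95, 1.57, 1.88 and 1.997%, and in wild-type MSCs 1.25, 1.43, 1.37 and 1.25%, so all 4 deficient MSC libraries lay above all 4 wild-type ones. The deficient MSC library of mouse F was the nearest to the wild-type range. In bulk RNA, fewer cells of a type and less RNA per cell cannot be told apart.

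Large and small subunit genes kept nearly the same proportion within a cell type. The summed normalized counts of the 46 large subunit genes, divided by those of the 31 small subunit genes, were 1.28, 1.29, 1.28 and 1.28 in deficient OBs and 1.28, 1.28, 1.27 and 1.27 in wild-type OBs. In deficient MSCs the ratio was 1.35, 1.39, 1.39 and 1.37, and in wild-type MSCs 1.39, 1.38, 1.39 and 1.37. It thus lay lower in all 8 OB libraries than in all 8 MSC libraries, by 0.0917 in deficient and 0.106 in wild-type mice, whereas the genotypes overlapped in both cell types. The mean log2 level of large minus small subunit genes was likewise lower in OBs than in MSCs, at -0.293 ± 0.00753 in deficient and -0.297 ± 0.0109 in wild-type OBs, and -0.160 ± 0.0392 in deficient and -0.167 ± 0.0137 in wild-type MSCs (SD, n = 4 each). No test is given for these sums over genes. A few genes carried much of the total: Rpl4, Rplp0, Rpl13a, Rps3 and Rpl8 gave 19.4% of core counts in deficient and wild-type OBs and 20.6% in deficient and wild-type MSCs.

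**Figure D1:**
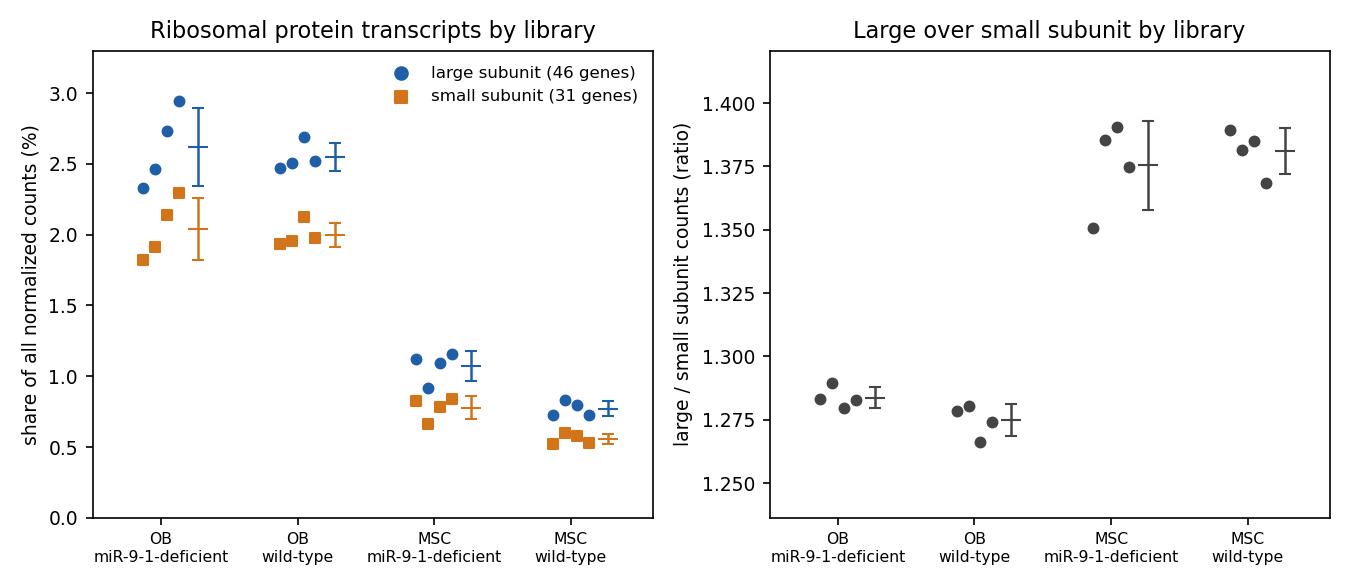
Left, share of all normalized counts (%) taken by large (circles) and small (squares) subunit genes in each library, and right, the ratio of their summed counts (axis does not start at 0), with mean and SD of 4 libraries beside each group. OB libraries lie above MSC libraries in share and below them in ratio, between 1.27 and 1.29 against 1.35 to 1.39.

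In MSCs, 2 core genes were higher in deficient than in wild-type mice by the test, and the other 75 had differences of the same sign that did not pass. Of the 77 core genes, 77 had a log2 difference above 0, with a median of 0.37 (1.29-fold) and quartiles of 0.32 and 0.43. The median over all 14964 genes tested was -0.03. The spread of the changes was 0.12 (SD over core genes), against 0.70 over all genes. Only 2 core genes passed at an adjusted p under 0.05 (limma, Benjamini-Hochberg over all genes tested), Rps27 and Rpl37a, or 3 members with Rps27rt. Of all genes, 0.501% passed as higher. At an unadjusted p under 0.05, 62 of 77 core genes were higher, as were 1601 of all 14964 genes. In 57 of 77 core genes all 4 deficient libraries lay above all 4 wild-type ones, against 6.30% of all genes. Among the 20 genes whose groups overlapped, mouse F was at or below the highest wild-type library in 16. Large and small subunit genes had the same median change, 0.37 each, with 1 gene of each passing.

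Rps27, a zinc-finger protein of the small subunit, had 5562, 3637, 5440 and 5271 normalized counts in deficient MSCs, against 2989, 3141, 2819 and 2912 in wild-type MSCs. Mouse F was the lowest of the deficient mice and still above every wild-type library. The log2 change was 0.73 ± 0.151 (SE, 1.66-fold, adjusted p = 0.0495, limma). Rps27rt, read together with Rps27, had a log2 change of 0.73 as well (adjusted p = 0.0495). Rpl37a, a zinc-finger protein of the large subunit, had 3125, 2637, 2878 and 2819 in deficient MSCs, against 1833, 1991, 2084 and 1823 in wild-type MSCs. Its groups were separate, and the log2 change was 0.57 ± 0.115 (SE, adjusted p = 0.0455). Rpl35a, a large subunit protein mutated in human Diamond-Blackfan anaemia, had 2591, 2272, 2689 and 2437 in deficient MSCs, against 1586, 1923, 1685 and 1459 in wild-type MSCs. With a log2 difference of 0.59 ± 0.126 (SE) it missed the threshold (adjusted p = 0.0537). At the other end of the range, Rps29 had a log2 difference of 0.09 ± 0.178 and Rpl31 of 0.04 ± 0.154 (SE), so neither exceeded the spread between libraries.

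**Figure D2:**
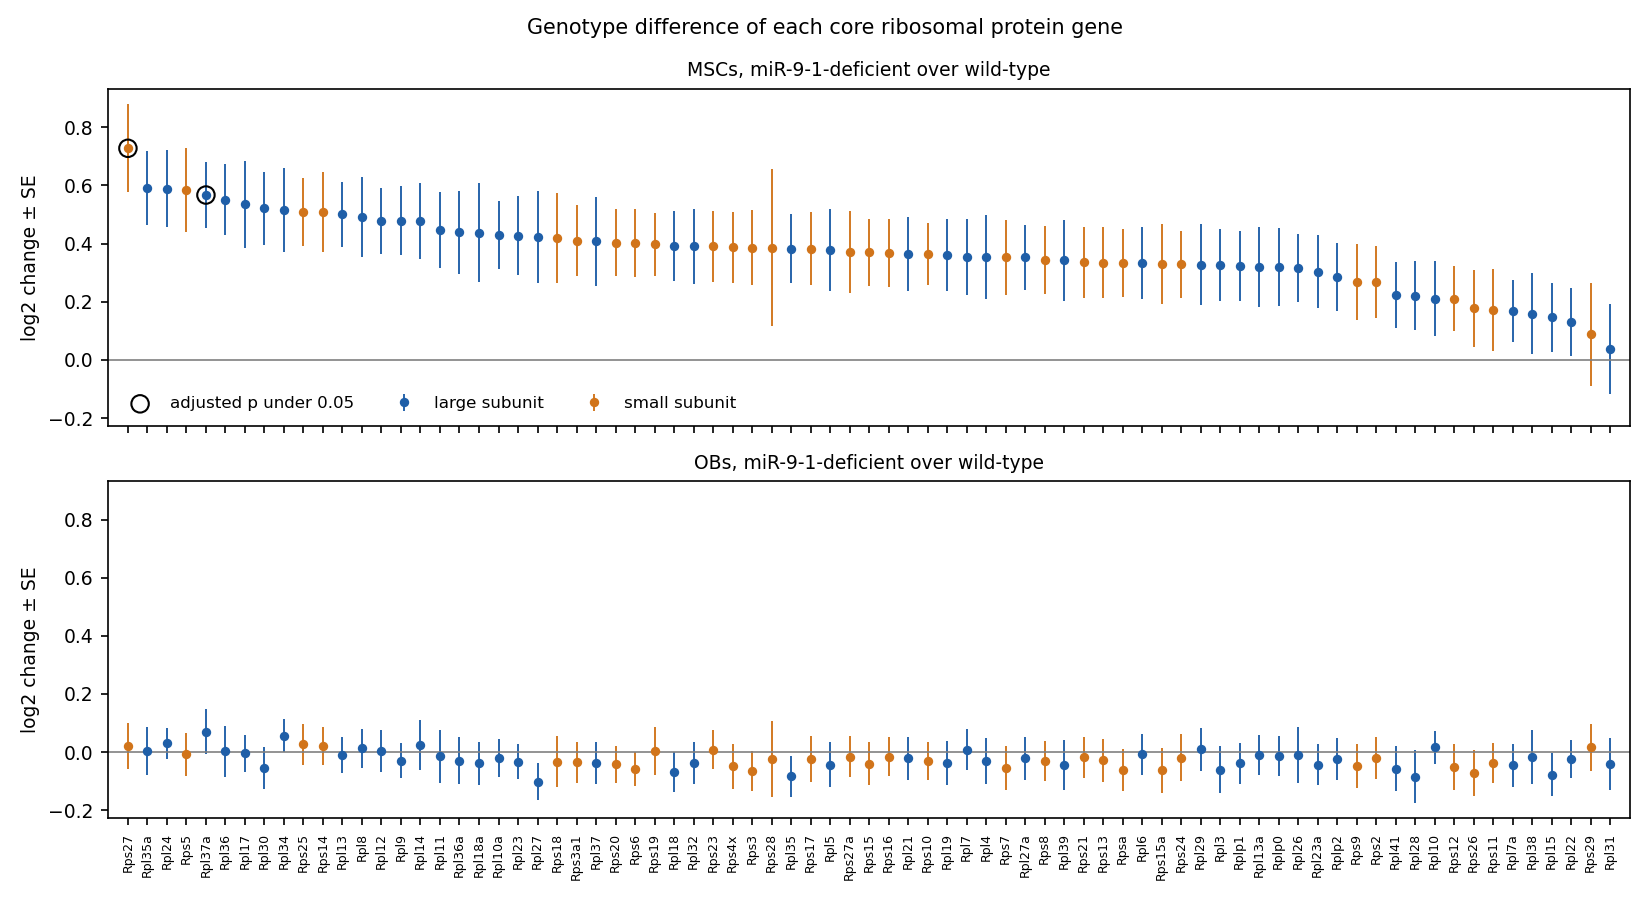
Log2 change ± SE (y axis) of each of the 77 core genes (x axis, ordered by the change in MSCs), deficient over wild-type, in MSCs above and OBs below, coloured by subunit. All 77 points lie above 0 in MSCs, with rings on Rps27 and Rpl37a, and lie between -0.10 and 0.07 in OBs.

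The number of passing core genes in MSCs hung on the fit, while their median stayed above 0. It was 2 with edgeR and 35 with DESeq2 on the recovered reads (680 of 14964 genes higher with DESeq2). With all 16 libraries in 1 fit and the mouse number as a replicate block, 60 core genes passed, among 1125 of 14964 genes higher. Without mouse F, 43 core genes passed, among 1040 of 14775 higher, and leaving out any other single MSC library left 0. Quantile normalization left 0 and scaling to equal totals 9. For edgeR, these scalings and the other left-out libraries, the counts over all genes are not given here. Their core counts are thus not read as a result about the core genes. The median log2 difference of the core genes lay between 0.33 and 0.47 in all of these, highest with equal totals, where the median of all genes was 0.07. Mouse F gave the lowest value of the deficient MSC libraries in 55 of 77 core genes and mouse E the highest in 51.

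Other measures moved with genotype in MSCs. Without mice G and H, whose MSC libraries held muscle RNA, the median was 0.34 with 75 of 77 core genes above 0, and 0 core genes passed (27 at an unadjusted p under 0.05), as did 0 of all 14470 genes. With the muscle level as a covariate the median was 0.37, and again 0 core genes and 0 of all 14964 genes passed. Osteoblast markers had a mean log2 level of 10.2 to 11.2 in deficient and 11.9 to 12.1 in wild-type MSCs, with 2 of 12 genes lower and 0 higher. B-lineage genes stood at 3.71 to 4.85 in deficient and 6.24 to 6.87 in wild-type MSCs, with 3 of 9 tested genes lower and 0 higher. Of the 10 listed, 1, Vpreb1, was listed at 0 in all 4 deficient libraries. In the fit as reported, 84 of all 14964 genes passed as lower and 75 as higher. The 10 most abundant genes took 7.57 to 11.7% of counts in deficient and 14.2 to 18.8% in wild-type MSCs. In OBs the 10 most abundant genes were likewise lower, at 4.35 to 4.72% in deficient and 5.96 to 8.44% in wild-type libraries. Osteoblast markers stood there at 7.78 to 10.2 in deficient and 10.3 to 11.1 in wild-type libraries, with 0 of 12 passing. The ribosomal RNA precursor Rn45s took 0.590 to 0.708% in deficient MSCs and 0.610 to 2.46% in wild-type MSCs, highest in mouse D. The part of osteoblast and B-lineage genes, of the top genes and of Rn45s in the result was not tested.

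In OBs, deficient and wild-type mice did not differ detectably in any core gene. The median log2 change was -0.03, close to the median of all 14229 genes (-0.02), and the 77 values ran from -0.10 to 0.07. Of the core genes, 0 passed with limma, edgeR or DESeq2, where 0.0281% of all genes passed with limma. At an unadjusted p under 0.05 (limma) there were 0 core genes, against 594 higher and 680 lower of all 14229 genes. The 2 OB groups overlapped in every core gene, where 2.47% of all genes were separate and higher and 2.99% separate and lower. The 3 highest by p were Rpl34, Rpl37a and Rpl24, with log2 differences of 0.06, 0.07 and 0.03, and the 3 lowest were Rpl27, Rpl35 and Rpl15, with -0.10, -0.08 and -0.08. Rpl27, the farthest from 0, had 1028, 1033, 1197 and 1094 normalized counts in deficient OBs, against 1182, 1142, 1193 and 1145 in wild-type OBs (SE of the log2 difference 0.0637, adjusted p = 0.656).

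Within the deficient OBs the core genes moved together from mouse to mouse. Mouse E gave the lowest of the 4 values in 71 of 77 core genes and mouse H the highest in 67. Mice E and F, with the lowest shares of ribosomal protein RNA, were those with high stromal RNA. Without both, the median log2 difference was 0.08, with 0 core genes passing and 9 at an unadjusted p under 0.05. With the stromal level as a covariate it was 0.03. In wild-type OBs mouse C gave the highest value in 67 of 77.

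The difference between both genotype effects, OBs minus MSCs, was below 0 in 77 of 77 core genes, with a median of -0.39 against 0.04 over all 15556 genes tested. With limma 66 core genes had an unadjusted p under 0.05, all lower, where 929 of all 15556 genes were lower and 857 higher. By adjusted p 0 core genes passed, where 0.0129% of all genes did. With edgeR 0 passed (60 at an unadjusted p under 0.05) and with DESeq2 20, all lower, among 82 of 15556 genes. Without the MSC library of mouse F, 30 passed as lower, among 319 of 15464 genes. The smallest p-values belonged to the large subunit genes Rpl13, Rpl30 and Rpl9, with differences of -0.51 ± 0.112, -0.58 ± 0.134 and -0.51 ± 0.120 (SE), each at an adjusted p of 0.223. Rpl13 had 6151, 6348, 6889 and 7306 normalized counts in deficient OBs, against 6655, 6685, 6852 and 6654 in wild-type OBs. In MSCs it had 4664, 4310, 4451 and 4552 in deficient mice, against 3375, 3299, 3096 and 2951 in wild-type mice. The genotypes thus overlapped in OBs and were separate in MSCs.

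Between cell types, every core gene was higher in OBs than in MSCs in wild-type mice, and nearly every one in deficient mice. In deficient mice 74 of 77 passed as higher, where 29.0% of all genes did and 30.6% passed as lower, and in 75 of 77 the groups were separate (28.0% of all genes, higher). The median log2 change was 0.94 (1.91-fold), against -0.02 over all genes. In wild-type mice 77 of 77 passed as higher, where 34.4% of all genes did and 35.5% passed as lower, and in all 77 the groups were separate (32.6% of all genes, higher). The median was 1.32 (2.50-fold), against 0.01 over all genes. An increase of 2-fold or more, a log2 change of 1, was seen in 27 of 77 core genes in deficient mice and in 72 of 77 in wild-type mice. The upper quartile over all genes was 0.70 in deficient and 0.74 in wild-type mice. These 2-fold counts hang on the scaling. In deficient mice the core median lay just under the mark at 0.94, and was 1.39 with equal totals.

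Small subunit genes had the larger median difference between cell types in both genotypes, a gap that was not tested. In deficient mice the median log2 change was 0.97 for the small and 0.90 for the large subunit, and in wild-type mice 1.40 and 1.29. The 2-fold mark, with the same dependence on scaling, was reached by 15 of 31 small and 12 of 46 large subunit genes in deficient mice. In wild-type mice it was reached by 31 of 31 and 41 of 46. Blood progenitor markers had a mean log2 level of 10.5 to 10.9 in deficient and 10.7 to 11.04 in wild-type OBs, against 8.37 to 9.01 in deficient and 8.81 to 9.76 in wild-type MSCs. Erythroid genes had 9.41 to 10.03 in all OBs and 7.05 to 8.95 in all MSCs. Neutrophil genes ran the other way, at 7.80 to 10.1 in OBs and 10.2 to 12.6 in MSCs. The part of blood cell RNA in these changes was not tested.

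**Figure D3:**
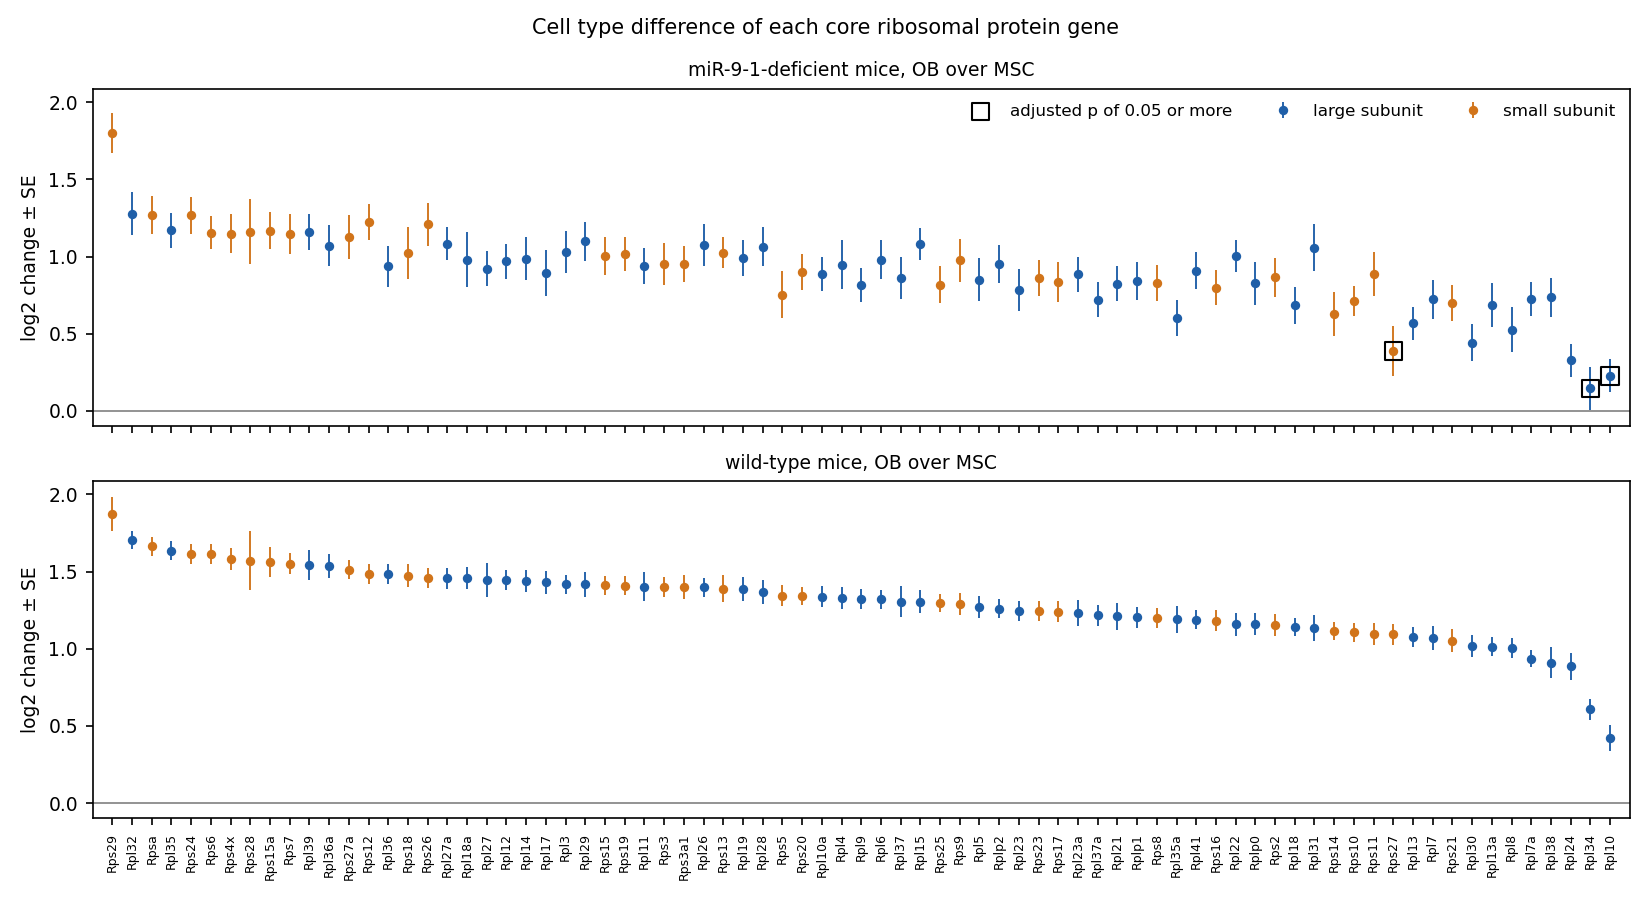
Log2 change ± SE (y axis) of each core gene (x axis, ordered by wild-type mice), OB over MSC, in deficient mice above and wild-type mice below, coloured by subunit. All points lie above 0, Rps29 is the highest in both, and squares mark Rps27, Rpl34 and Rpl10, which did not pass in deficient mice.

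Rps29, a small zinc-finger protein of the small subunit, showed the largest change of the core genes in both genotypes. It had 941, 1090, 1173 and 1178 normalized counts in deficient OBs, against 303, 282, 307 and 361 in deficient MSCs, and 1036, 1061, 1157 and 1063 in wild-type OBs, against 305, 258, 269 and 352 in wild-type MSCs. Its log2 change was 1.80 ± 0.129 in deficient and 1.87 ± 0.113 in wild-type mice (SE, adjusted p = 9.9e-06 and 1.3e-07). By genotype its MSC groups overlapped, and whether it differed there from other core genes was not tested. Rpl32 of the large subunit had a log2 change of 1.28 in deficient and 1.71 in wild-type mice. Rpsa, a small subunit protein also known as the laminin receptor, had 1.27 and 1.66. Rps24, mutated in human Diamond-Blackfan anaemia, had 1.27 and 1.62. Rpl35 had 1.17 and 1.64, and Rps12 had 1.22 and 1.49, in deficient and wild-type mice in that order. All of these passed in both genotypes.

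Rpl10 and Rpl34 stood at the low end. Rpl10, among the last proteins to join the large subunit, had 3898, 4343, 4454 and 4380 normalized counts in deficient OBs, against 3693, 3554, 4051 and 3308 in deficient MSCs. In wild-type mice it had 4217, 4353, 4075 and 4223 in OBs, against 2975, 3635, 2815 and 3220 in MSCs. The groups overlapped in deficient mice (log2 difference 0.23 ± 0.107 SE, adjusted p = 0.0914) and were separate in wild-type mice (0.42 ± 0.0827, adjusted p = 0.00091). Rpl34 had 2483, 2444, 2619 and 2801 in deficient OBs, against 2774, 1815, 2371 and 2487 in deficient MSCs (0.15 ± 0.138, adjusted p = 0.381). In wild-type mice it had 2433, 2429, 2526 and 2553 in OBs, against 1660, 1761, 1594 and 1518 in MSCs (0.61 ± 0.0678, adjusted p = 1.4e-05). Rps27 did not pass in deficient mice either. There its log2 difference was 0.39 ± 0.160 (adjusted p = 0.0591), although its groups were separate, and in wild-type mice it passed with 1.09 ± 0.0668 (adjusted p = 1.4e-07).

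**Figure D4:**
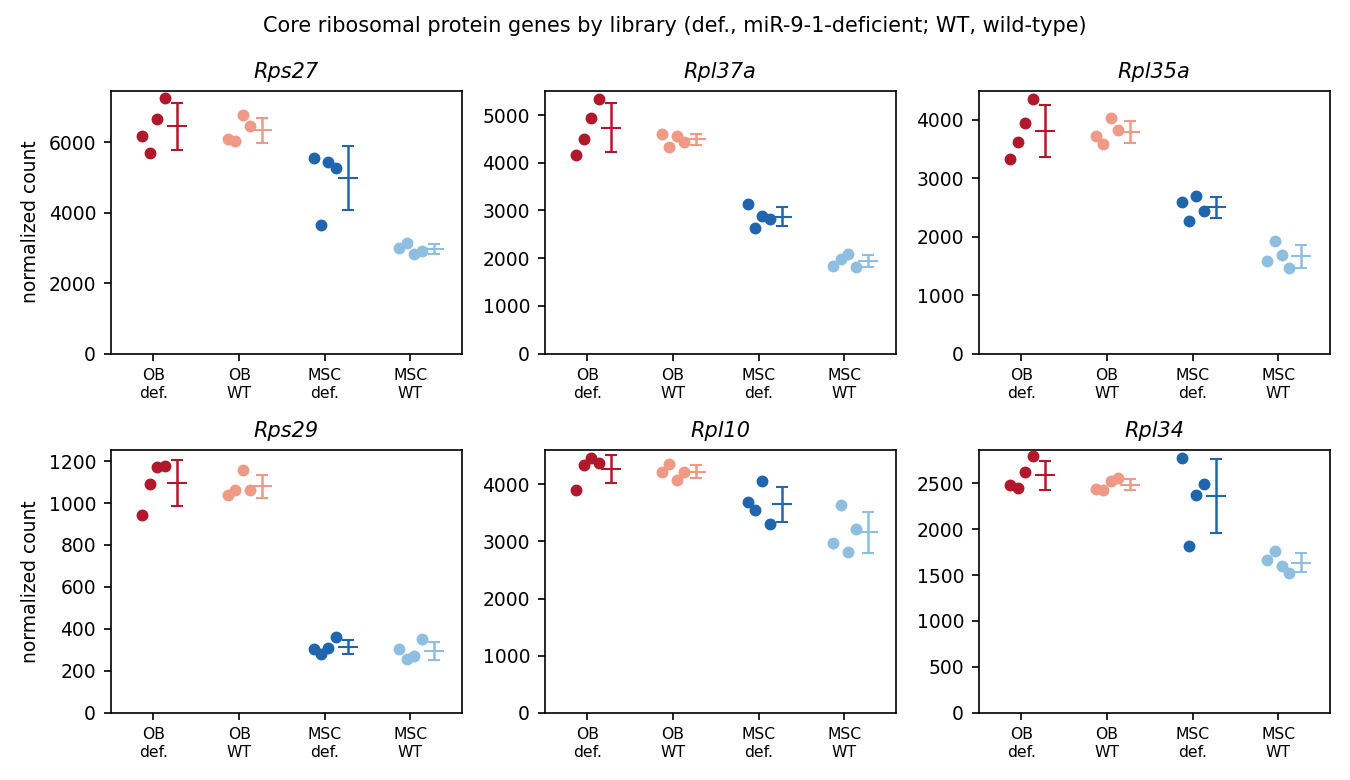
Normalized counts (y axis, from 0) of 6 core genes in the 16 libraries, with mean and SD of 4 libraries beside each group. Rps27, Rpl37a and Rpl35a are separate by genotype in MSCs and overlap in OBs, Rps29 separates by cell type alone, and Rpl10 and Rpl34 overlap between cell types in deficient mice.

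The scaling set the size of the difference between cell types but not its direction. Normalized counts summed to 11682925 to 12690415 in OBs and 14828650 to 18429578 in MSCs. Scaling every library to equal totals moved the median of all genes to 0.42 in deficient and 0.51 in wild-type mice, and the core median to 1.39 and 1.82. Quantile normalization moved the median of all genes to 0.10 in deficient and 0.17 in wild-type mice, and the core median to 1.36 and 1.67. Relative to the median of all genes, the core median then was 0.96 in deficient and 1.31 in wild-type mice with equal totals, and 1.26 and 1.502 with quantiles, against 0.96 and 1.31 as reported above. Equal totals shift all genes of a library by nearly the same log2 amount, so the unchanged values there follow from the scaling itself. All 77 core genes passed in both genotypes with either scaling, for which the counts over all genes are not given here.

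No duplicated copy other than Rps27rt, which shares its reads with Rps27, passed by genotype in MSCs. Of 9 copies, 8 passed the filter on low values, and in MSCs 6 of the 8 had a log2 difference below 0 and 2 above. The copy below the filter, Rpl10l, a testis gene in mice, had at most 4.51 normalized counts in deficient and 1.30 in wild-type OBs, and at most 12.9 in deficient and 20.7 in wild-type MSCs. Between cell types, 4 of 8 tested copies passed as higher and 1 as lower in deficient mice, and 5 as higher and 2 as lower in wild-type mice. The shares over all genes were 29.0% higher and 30.6% lower in deficient mice and 34.4% higher and 35.5% lower in wild-type mice, and with 8 copies these counts are not read as a result about the copies.

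Rpl36al, an autosomal copy of the X-linked Rpl36a with 87.7% of coding bases the same, had 1784, 1843, 2002 and 2137 normalized counts in deficient OBs, against 750, 1012, 855 and 791 in deficient MSCs. In wild-type mice it had 2169, 2032, 2277 and 2082 in OBs, against 971, 1009, 953 and 861 in MSCs. Its log2 change between cell types was 1.19 in deficient and 1.17 in wild-type mice (adjusted p = 5.7e-05 and 2.0e-07). In MSCs the genotypes overlapped, with a log2 difference of -0.16 ± 0.136 (SE, adjusted p = 0.503), while Rpl36a had 0.44 ± 0.142 (adjusted p = 0.117). Whether the pair differed from each other was not tested.

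Rps27l, a p53 target, Rpl22l1, which can stand in for Rpl22 in mice, and Rpl7l1 were also higher in OBs. Their log2 changes were 0.78, 0.44 and 0.79 in deficient mice and 0.85, 0.56 and 0.41 in wild-type mice, and all 3 passed in both. The Rpl22l1 call in deficient mice was lost in 7 alternatives (adjusted p = 0.0518 to 0.113, limma), and without the MSC library of mouse F its log2 difference was 0.29. In MSCs Rpl7l1 had 640, 733, 481 and 535 normalized counts in deficient mice, against 953, 940, 698 and 819 in wild-type mice. The groups overlapped through mouse F, and the log2 difference of -0.52 ± 0.172 (SE) did not pass (adjusted p = 0.121).

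Rpl39l and Rps4l were lower in OBs. Rpl39l, a germ-cell copy of Rpl39 in mice, had 37.5, 61.9, 16.8 and 4.51 normalized counts in deficient OBs, against 66.9, 32.2, 61.4 and 52.6 in deficient MSCs, and the groups overlapped (log2 difference -1.25 ± 0.698 SE, adjusted p = 0.148). In wild-type mice it had 18.1, 19.5, 17.3 and 4.40 in OBs, against 94.4, 57.0, 151 and 79.6 in MSCs, and the groups were separate (-2.69 ± 0.506, adjusted p = 0.000681). Rps4l had 151, 180, 153 and 151 in deficient OBs, against 195, 432, 218 and 250 in deficient MSCs (-0.71 ± 0.251, adjusted p = 0.0327). In wild-type mice it had 217, 190, 178 and 192 in OBs, against 387, 278, 292 and 334 in MSCs (-0.72 ± 0.148, adjusted p = 0.00123). With equal totals neither Rps4l call held, at log2 differences of -0.27 in deficient and -0.23 in wild-type mice (adjusted p = 0.367 and 0.156, limma), and the call in deficient mice was also lost without any of 4 single libraries. Rpl3l, a muscle copy of Rpl3, had 9.39, 3.87, 0 and 42.4 in deficient MSCs, against 15.3, 28.5, 9.45 and 33.1 in wild-type MSCs, with the highest value in mouse H, whose library also had the highest muscle level. It passed in no comparison. Rps19bp1 was higher in OBs, with a log2 change of 1.13 in deficient and 1.08 in wild-type mice, and had -0.07 ± 0.289 in MSCs by genotype.

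**Figure D5:**
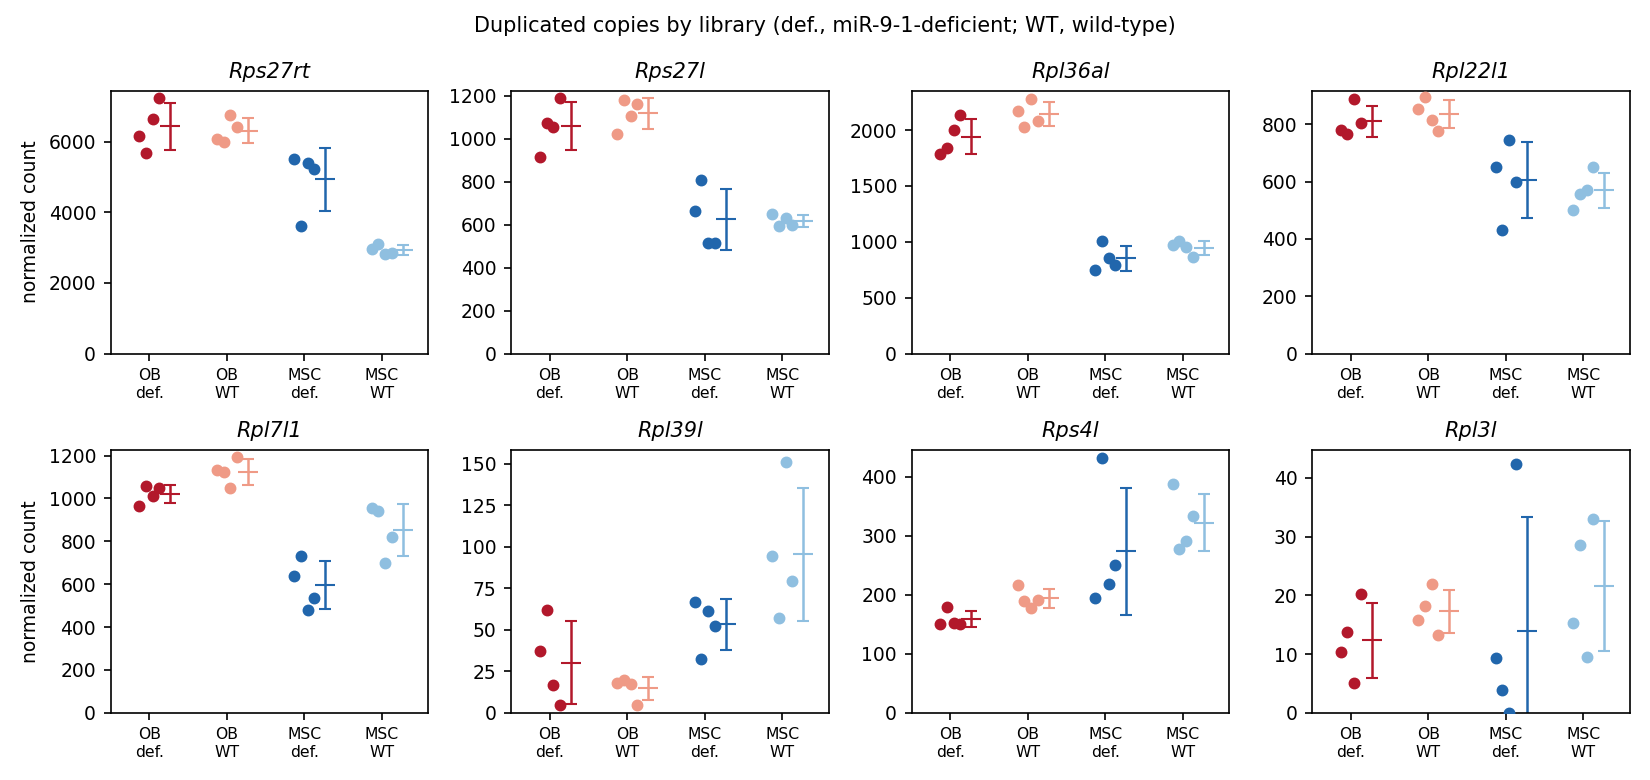
Normalized counts (y axis, from 0, each panel with its own scale) of 8 duplicated copies in the 16 libraries, with mean and SD of 4 libraries beside each group. Rps27rt repeats Rps27, Rps27l, Rpl36al, Rpl22l1 and Rpl7l1 lie higher in OBs, and Rps4l lies lower in OBs.

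Fau and Gnb2l1, proteins of the ribosome whose symbols fall outside the naming rule, were also higher in OBs than in MSCs. Fau encodes a small subunit protein made as a fusion with a ubiquitin-like protein, and Gnb2l1, now named Rack1, is a scaffold on the small subunit. Both passed in both genotypes, with log2 changes of 0.35 for Fau and 0.96 for Gnb2l1 in deficient mice, and 0.78 and 1.39 in wild-type mice. The Fau call in deficient mice was lost in 6 alternatives, without a filter and without any of 5 single libraries (adjusted p = 0.0513 to 0.101, limma). In MSCs their log2 differences by genotype were 0.43 ± 0.152 for Fau and 0.39 ± 0.155 for Gnb2l1 (SE), and neither passed (adjusted p = 0.137 and 0.172, limma). Gnb2l1 had 12617, 8080, 10431 and 10227 normalized counts in deficient MSCs, against 7584, 8288, 7389 and 7993 in wild-type MSCs, overlapping through mouse F.

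Other genes of translation that commonly carry a TOP motif were described with a list of 20 elongation and initiation factors and partners. By genotype in MSCs 0 of 20 passed with limma or edgeR and 3 with DESeq2, and the median log2 change was 0.24. At an unadjusted p under 0.05 (limma) 6 of the 20 were higher, as were 1601 of all 14964 genes. In OBs 0 passed and the median was -0.02. Between cell types 15 were higher and 1 lower in deficient mice, and 19 higher and 1 lower in wild-type mice. Of all genes, 29.0% were higher and 30.6% lower in deficient mice, and 34.4% higher and 35.5% lower in wild-type mice. Eef1g, a subunit of the elongation factor 1 complex, had log2 changes of 1.54 and 1.59 in deficient and wild-type mice. Npm1, a nucleolar chaperone, had 1.39 and 1.51, and Hnrnpa1, an RNA-binding protein, 1.25 and 1.45. The lower gene was Eif4a2, an RNA helicase, at -0.31 and -0.30, whose direction turned with quantile normalization and with equal totals.

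Of 16 genes of the mTOR pathway and its targets, 3 passed by genotype in MSCs, all higher, where 0.501% of all genes did, and 0 in OBs. Myc had 8204, 5500, 6259 and 5764 normalized counts in deficient MSCs, against 3404, 3644, 2776 and 2319 in wild-type MSCs (log2 change 1.09 ± 0.179 SE, adjusted p = 0.027). Deptor, an inhibitor within the mTOR complexes, had 5128, 1651, 2550 and 4809 in deficient MSCs, against 841, 948, 1161 and 897 in wild-type MSCs (1.74 ± 0.312, adjusted p = 0.0373). Tsc1, a brake on mTOR complex 1, had 1789, 1006, 1401 and 1835 in deficient MSCs, against 726, 713, 672 and 690 in wild-type MSCs (1.07 ± 0.184, adjusted p = 0.0321). All 3 had separate groups, with mouse F the lowest of the deficient mice. Each of the 3 calls was lost in 9 alternatives (adjusted p = 0.0523 to 0.256, limma), namely without any 1 MSC library other than that of mouse F, with the muscle level as a covariate, and without mice G and H.

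Between cell types, 5 of the 16 mTOR genes were higher and 6 lower in deficient mice, where 29.0 and 30.6% of all genes were. In wild-type mice 7 were higher and 4 lower, where 34.4 and 35.5% of all genes were, so these counts lie near those of all genes. Eif4ebp2, an inhibitor of cap-dependent translation, and the cap-binding protein Eif4e were higher in OBs, with log2 changes of 0.95 and 0.96 in deficient and 1.05 and 0.89 in wild-type mice. Larp1 was higher by 0.87 and 0.89. Mlst8, a subunit of both mTOR complexes, passed in deficient mice alone (0.89 ± 0.177) and had 0.07 ± 0.165 in wild-type mice. Its normalized counts were 209 to 258 in deficient and 214 to 269 in wild-type OBs, and 113 to 151 in deficient and 170 to 248 in wild-type MSCs. By genotype its MSC groups were thus separate, with the deficient one lower, but Mlst8 did not pass there. Myc was lower in OBs, by a log2 change of -1.81 in deficient and -1.09 in wild-type mice, so it ran opposite to the ribosomal protein genes there. Tsc2, the partner of Tsc1, had -0.67 and -0.88, and Rheb, the activator of mTOR complex 1, -0.45 and -0.46, the last of which turned above 0 with equal totals. Mtor had -0.55 in deficient mice and 0.01 in wild-type mice. With equal totals the Tsc2 and Mtor calls in deficient mice were lost, at log2 differences of -0.218 and -0.0957 (adjusted p = 0.161 and 0.542, limma).

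Levels within the core set were compared per kilobase of transcript. Rplp1 of the large subunit stalk had the highest level per kilobase on average over all libraries, with 24507 normalized counts per kilobase in deficient and 25102 in wild-type OBs, and 13646 in deficient and 10907 in wild-type MSCs. In deficient MSCs alone Rps27 stood above it, at 14427. Rps15 and Rpl32 followed over all libraries. The lowest were Rpl5, Rps28 and Rpl27. Rpl5, part of the 5S particle that also binds Mdm2, had 1293 in deficient and 1327 in wild-type OBs, and 721 in deficient and 550 in wild-type MSCs. Its annotated transcript of 2045 bases is the longest of the large subunit genes, so its level per kilobase hangs on the choice of transcript. The core genes lay on 19 chromosomes, with 14 on chromosome 7 and 4 on X. Their transcripts had a median length of 729 bases, against 2818 for 13162 protein-coding genes at 10 or more normalized counts in at least 8 libraries. The change in MSCs by genotype had a correlation across the 77 genes of 0.02 with log2 transcript length (Pearson's r, a description over genes that share libraries), and the 25 shortest and 25 longest genes had median changes of 0.37 each.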

How the data were processed

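Values deposited by the authors are normalized counts, a signal scaled by 1 size factor per library. Tools named in the submitters' processing notes are DESeq2 1.24.0, with the mm10 build. Every value was a whole multiple of 1 step per library within 0.01, so whole reads were recovered (100% of values) for the count tests. Aligner, counting method and annotation were not given in the sources used here, so reads shared with pseudogenes or copies may be split in an unknown way. Log2(normalized count + 1) was fitted with limma 3.58.1 (trend) in R 4.3.3 over genes at 10 or more in at least 4 fitted libraries. Fold changes on this scale understate those of low genes. The threshold was an adjusted p of 0.05 (Benjamini-Hochberg over every gene tested). Alternatives used edgeR 4.0.16 and DESeq2 1.42.0. The code was tested on simulated data.

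Members, lists and tests were chosen with earlier results of these data known. Genes named were, per comparison and direction, up to 5 passing core genes of largest change, or the smallest p up to 3, with the extremes of level per kilobase, all copies, the components reported, and up to 3 passing genes of each pathway list. Rpl10, Rpl31, Rpl36a and the 5 genes with the largest sums were named after their values were seen. For the replicate block the same animal number was read as the same mouse in both sorts. This reading was not tested, and every OB library held both Xist and Ddx3y. Deviations of the OB and MSC libraries of a mouse from their group means correlated with r of 0.0505 to 0.332, and 5 of 8 mice correlated best with themselves. Labels do not say whether replicates are separate sorts, so p-values measure the spread between these libraries. One item that the rule names is not reported here.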

Additional observations from a re-analysis of the deposited data

Results flagged for a closer look

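In groups of 4, a library stood apart from the other 3 beyond Dixon's 95% critical value in 14 of 208 cases, where chance alone flags about 1 in 20. In deficient OBs these were the large minus small subunit log2 level of mouse F (-0.2815), Deptor in mouse E (2809 normalized counts), Eif4a2 in mouse F (4260) and Rps4l in mouse F (179.8). In wild-type OBs they were Eif4e in mouse C (928.9), Rpl10l in mouse B (1.301), Rpl13 in mouse C (6852), Rpl39l in mouse D (4.405) and Tsc2 in mouse C (1433). Rplp1 in mouse G (7410), Rps27 in mouse F (3637) and Rps27rt in mouse F (3606) stood apart in deficient MSCs. The mean log2 level of the core genes in mouse B (11.24) and Rpl30 in mouse A (1572) stood apart in wild-type MSCs.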

How the results depend on the processing

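Core genes passing between deficient and wild-type MSCs numbered 2 as reported, 1 without a filter, 0 with quantile normalization, 35 with DESeq2, 9 with totals made equal (chosen after seeing the data), 60 with all 16 libraries and the mouse as a replicate block, 0 with the muscle level as a covariate, 0 without both muscle-high libraries, and 0 to 43 when 1 library was left out, 43 without mouse F. The cause was not tested, and counts here without a share over all genes are not read as a result about the core genes. Equal totals gave a median log2 change of 0.474 in these MSCs. In OBs the median by genotype was 0.0801 without both stroma-high libraries and crossed 0 in other settings, with 0 genes passing in each. Between cell types the median was 1.36 in deficient and 1.67 in wild-type mice with quantile normalization, 1.39 and 1.82 with equal totals, and 1.37 in wild-type mice with edgeR. For the difference of effects 20 genes passed with DESeq2, and 0 to 30 with 1 library left out, 30 without the MSC library of mouse F. Large minus small subunit became -0.355 in deficient and -0.371 in wild-type OBs and -0.152 in wild-type MSCs with quantile normalization. Eif4a2 turned to 0.0431 in deficient and 0.0022 in wild-type mice with quantile normalization and to 0.142 and 0.197 with equal totals, and Rheb to 0.0391 in wild-type mice with equal totals. Of the named genes' other values, 820 kept direction and side of the threshold and 83 no longer passed. The mouse as a replicate block left 75 core genes passing between cell types in deficient mice, 77 in wild-type mice and 0 for the difference of effects, and changed no other call of a core count. Leaving out 1 library for large minus small subunit was also chosen after seeing the data. Core genes had group means of 154 normalized counts or higher, while Rpl10l, Rpl3l and Rpl39l had libraries near the floor of 3 reads (1.95 to 4.51 normalized counts).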
